A study of Mus musculus with 8 samples.

Results

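The 10 genes described here are a set whose human counterparts cause primary microcephaly when mutated: Aspm, Cdk5rap2, Wdr62, Mcph1, Cenpj, Stil, Cep152, Cep63, Cep135 and Cit. They were taken by name from the disease, with no threshold on their values, but with earlier results of these data known. All 10 were found in both count tables, among the 22801 genes that the tables share. All 10 also passed the filter on low counts, among 14935 genes tested at E11.5 and 16326 at E12.5. Bulk poly(A) RNA was sequenced from the dissected cortex of single C57BL/6N mouse embryos, 2 Mboat7+/- and 2 Mboat7-/- at E11.5 and again at E12.5, 8 cortices in all. Mboat7 encodes LPLAT11, an acyltransferase that attaches arachidonic acid to phosphatidylinositol. The Mboat7-/- embryos are global knockouts, carrying the null alleles in every tissue, and the Mboat7+/- controls carry 1 null allele themselves. No wild-type cortex was analysed here, and embryos were taken without regard to sex. The 2 stages were sequenced by different providers on different instruments, so stage and provider cannot be told apart.

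The count of Mboat7 itself at E11.5 was 700 and 876 in Mboat7+/- and 1103 and 860 in cortices labelled Mboat7-/-. At E12.5 it was 739 and 782 against 730 and 729. The library labels are therefore not borne out by a loss of Mboat7 reads at either stage, and the part of the gene removed by the null allele is not given in the sources used here. Directions below refer to the libraries labelled Mboat7-/- and Mboat7+/-. Each cortex had between 20799311 and 28189771 counts, and 3 counts correspond to 0.106 to 0.144 CPM (counts scaled to library size). The members had between 609 and 3476 counts per cortex at E11.5 and between 217 and 2196 at E12.5. Xist, the transcript of the inactive X chromosome, had 17875 counts in replicate 1 of the E11.5 Mboat7+/- cortices and 0 to 2 in each of the other 7. Emx2, a marker of the dorsal telencephalon, had counts in every cortex.

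Radial glial cells, the stem cells of the embryonic cortex, line the ventricle and divide there many times before and during neurogenesis. Each division needs a duplicated pair of centrosomes, a bipolar spindle held at a set angle, and a completed cytokinesis. Primary microcephaly is a small but otherwise largely normally patterned brain, and most genes that cause it act at the centrosome, the spindle pole or the midbody. Among the members, Cep63 and Cep152 form a ring around the mother centriole that recruits the duplication machinery. Stil and Cenpj build the new centriole and Cep135 stabilises it. Cdk5rap2 anchors gamma-tubulin ring complexes in the pericentriolar material. Aspm and Wdr62 act at the spindle pole. Mcph1 restrains chromosome condensation and takes part in the DNA damage response, and Cit encodes citron kinase, which organises the midbody at the end of cytokinesis.

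A promoter is given for 9 of the 10 members in the RefSeq set used here (assembly GRCm38.p6), with 1 start used per gene. For Cit and Cep63 the bases shown lie within the gene span of GENCODE vM21 given below, downstream of its outer start. The 120 bases before the RefSeq start are shown for 4 of them, since the results below turn on these: Cit, Cdk5rap2 and Aspm, which had the smallest unadjusted p-values among members higher in the E11.5 Mboat7-/- cortices, and Cep63, the member that was lower. Sequences run 5′ to 3′ on the strand of the gene, and capitals mark a CCAAT box (CCAAT, or ATTGG on the other strand) or a GC box (GGGCGG, or CCGCCC on the other strand).
Cit (chr5:115845536-115845655, plus strand): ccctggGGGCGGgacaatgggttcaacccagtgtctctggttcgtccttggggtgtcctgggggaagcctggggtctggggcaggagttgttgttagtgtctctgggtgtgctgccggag
Cdk5rap2 (chr4:70410436-70410555, minus strand): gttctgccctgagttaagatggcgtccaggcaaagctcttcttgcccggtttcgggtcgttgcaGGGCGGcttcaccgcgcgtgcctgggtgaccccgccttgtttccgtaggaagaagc
Aspm (chr1:139454653-139454772, plus strand): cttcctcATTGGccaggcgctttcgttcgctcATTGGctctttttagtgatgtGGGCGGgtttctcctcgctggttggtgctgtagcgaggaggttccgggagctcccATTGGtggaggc
Cep63 (chr9:102626125-102626244, minus strand): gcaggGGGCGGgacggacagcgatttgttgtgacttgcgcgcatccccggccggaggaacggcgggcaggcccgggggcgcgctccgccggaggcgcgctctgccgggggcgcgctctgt
Aspm had 3 CCAAT boxes and 1 GC box within these bases, whereas Cit, Cdk5rap2 and Cep63 each had 1 GC box and no CCAAT box. Over the whole 300-base window, from 250 bases before to 50 after the start and reading both strands, a CCAAT box stood in 5 of the 9 members (Aspm, Wdr62, Stil, Cep152 and Cep135) and in 37.9% of 27025 promoters. The letters of an E2F site (TTCCCGC or GCGGGAA) stood in Wdr62, Stil and Cep152, against 4.66% of all promoters. The letters of the cell cycle homology region (TTTGAA or TTCAAA), an element known from genes expressed in G2 and M phase, stood in Aspm and Cdk5rap2 outside the bases shown, against 18.1% of all. All 9 held a GC box, against 35.9% of all. Matching letters are a description of these windows and say nothing of binding in the cortex.

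At E11.5, none of the 10 members passed the test, but 9 had a positive log2 fold change (Mboat7-/- over Mboat7+/-), as 49% of all genes did, and Cep63 a negative one. The threshold was an adjusted p (FDR, from edgeR's quasi-likelihood fit, adjusted over all genes by Benjamini and Hochberg's method) under 0.05, which 0% of genes passed, although 13.8% had an unadjusted p under 0.05 and DESeq2 gave 178 genes past it. The members' adjusted p from edgeR lay between 0.183 and 0.854, and by DESeq2 1 member, Cit, passed (0.0089). The members' median log2 fold change was 0.16 and that of all genes -0.01, and without each cortex in turn the members' median was 0.10 to 0.25, lowest without replicate 1 and highest without replicate 2 of Mboat7-/-. An unadjusted p under 0.05 was reached by 3 members that were higher (Cit, Cdk5rap2 and Aspm), where 7.94% of all genes did so, and by 1 that was lower (Cep63), where 5.81% did. In 6 members both Mboat7-/- cortices lay above both Mboat7+/- cortices, as in 23.1% of all genes, and in Cep63 both lay below, as in 23.3%. With 2 bulk cortices per genotype, fewer cells of a type and less RNA per cell cannot be told apart, and p-values measure only the spread between these embryos.

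**Figure D1:**
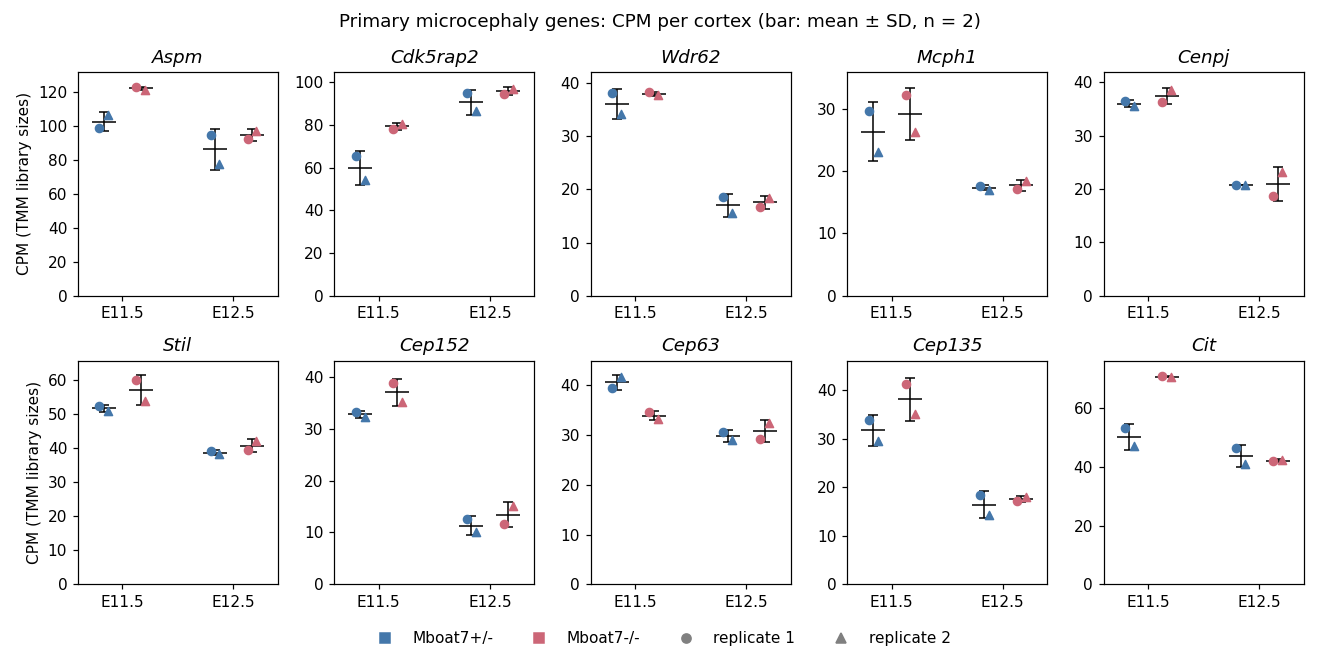
CPM of the 10 genes (vertical axes, from 0, on TMM-normalized library sizes) in each cortex at E11.5 and E12.5, with Mboat7+/- in blue, Mboat7-/- in red, and the mean ± SD of 2 cortices as a bar. At E11.5 the Mboat7-/- points of Cit sit at 70.9 and 70.5, above 53.3 and 46.9 in Mboat7+/-, whereas at E12.5 the genotypes of Cit overlap.

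Cit showed the largest difference of the 10 at E11.5. Its level was 53.3 and 46.9 CPM in the Mboat7+/- cortices and 70.9 and 70.5 CPM in the Mboat7-/- cortices, with means of 50.1 ± 4.48 and 70.7 ± 0.243 (SD, n = 2). The genotypes did not overlap, and the 2 Mboat7-/- cortices were nearly equal. The log2 fold change was 0.50 (standard error 0.0895, 95% interval 0.29 to 0.70), a fold of 1.41, with an adjusted p of 0.183 from edgeR. When cortices were paired by the replicate number, which is a batch number in the labels, the adjusted p of Cit in this replicate block was 0.0152, where 349 of the 14935 genes passed an FDR of 0.05, and it ranged from 0.00608 to 0.751 over the alternatives. Leaving out each cortex in turn gave log2 fold changes of 0.42 to 0.59, and the adjusted p was 0.00608 without replicate 2 of the Mboat7-/- cortices, where 1180 of 15333 genes passed.

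Cdk5rap2, the pericentriolar scaffold, was next. It stood at 65.6 and 54.3 CPM in the Mboat7+/- cortices and at 78.2 and 80.4 CPM in the Mboat7-/- cortices. Here too both Mboat7-/- values were above both others, with an SD of 8.05 CPM between the Mboat7+/- cortices and of 1.56 CPM between the others. The log2 fold change was 0.40 (standard error 0.0997, 95% interval 0.18 to 0.63, adjusted p = 0.194 from edgeR). In those same fits, with 349 and 1180 genes past an FDR of 0.05, the adjusted p of Cdk5rap2 was 0.0355 with the replicate block and 0.0319 without replicate 2 of the Mboat7-/- cortices, in a range of 0.024 to 0.762 over the alternatives.

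The spindle pole members differed from each other. Aspm, a microtubule minus-end protein and the most frequently mutated gene of human primary microcephaly, had 98.7 and 107 CPM in Mboat7+/- and 123 and 122 CPM in Mboat7-/- cortices. Its Mboat7-/- values were both the higher, and its log2 fold change was 0.25 (standard error 0.0719, 95% interval 0.09 to 0.42, adjusted p = 0.219 from edgeR). The adjusted p for Aspm with the block was 0.0885. Wdr62, a scaffold that recruits partners to the spindle pole, had 38.1 and 34.1 CPM in Mboat7+/- and 38.3 and 37.7 CPM in Mboat7-/- cortices. Its genotypes overlapped, with a log2 fold change of 0.08 (95% interval -0.17 to 0.32).

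The 5 members of centriole assembly did not move as one group. Cep63 had 39.5 and 41.7 CPM in the Mboat7+/- cortices and 34.6 and 33.2 CPM in the Mboat7-/- cortices. It was the only member with both Mboat7-/- cortices below both others. The log2 fold change of Cep63 was -0.26 (standard error 0.10, 95% interval -0.50 to -0.03, unadjusted p = 0.0336 and adjusted p = 0.319 from edgeR). By DESeq2 its unadjusted p was 0.0623, above 0.05. Leaving out each cortex in turn gave -0.30 to -0.21. Cep152, the partner of Cep63 in the ring, had 33.3 and 32.3 CPM against 38.8 and 35.2 CPM, a log2 fold change of 0.18 (95% interval -0.07 to 0.43). Its 4 values were apart by genotype but in the direction opposite to Cep63. Cep135 had 34.0 and 29.5 CPM against 41.2 and 35.0 CPM, with a log2 fold change of 0.27 (95% interval -0.03 to 0.56). Stil had 52.5 and 50.9 CPM against 60.1 and 53.9 CPM, with a log2 fold change of 0.14 (95% interval -0.07 to 0.35). In both genes the higher Mboat7-/- cortex was replicate 1. Cenpj, which sets centriole length, had 36.5 and 35.5 CPM against 36.4 and 38.5 CPM, overlapping groups with a log2 fold change of 0.05 (95% interval -0.18 to 0.29). Mcph1, which acts in the nucleus, had 29.7 and 23.0 CPM against 32.2 and 26.2 CPM. Its cortices of each genotype differed more from each other than the genotype means did, and its log2 fold change of 0.15 had the widest interval of the 10 (-0.22 to 0.52).

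Cep63 (ENSMUSG00000032534, chr9:102584588-102626534 in GENCODE vM21 on GRCm38, minus strand) shares 239 exonic bases, 4.82% of its merged exons, with Anapc13 on the other strand. Anapc13, a subunit of the anaphase-promoting complex, had 54.5 and 50.5 CPM in E11.5 Mboat7+/- and 44.4 and 45.2 CPM in Mboat7-/- cortices, with a log2 fold change of -0.23. Its values were thus apart in the same direction as those of Cep63. Whether the counting used strand is not given in the sources used here, so reads of the shared bases cannot be assigned with certainty to either gene. Wdr62 (ENSMUSG00000037020, chr7:30240138-30280419, minus strand) shares 264 bases, 5.57% of its merged exons, with Thap8, which is listed with 0 counts in the 4 E12.5 cortices. The other 8 members share no exonic base with another gene in this annotation. Cit (ENSMUSG00000029516) lies at chr5:115845278-116008947 on the plus strand, Cdk5rap2 (ENSMUSG00000039298) at chr4:70216856-70410443 on the minus strand, and Aspm (ENSMUSG00000033952) at chr1:139454772-139494091 on the plus strand.

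The members encode long transcripts, and the genotype difference at E11.5 moved with transcript length across all genes. Merged exon lengths were 11.85 kb for Cdk5rap2, 9.87 kb for Aspm and 9.56 kb for Cit, and between 4.74 and 5.77 kb for the other 7. The median log2 fold change of all genes tested was -0.13 in the shortest of 5 equal length classes and 0.14 in the longest, in which 77.4% of genes had a positive value. At E12.5 the same medians were -0.06 and 0.06. By length 5 members belong to the longest class and 5 to the next, and 9 had a log2 fold change above the median of their own class at E11.5 (8 at E12.5). With a trend in length and GC content removed from every library, the members' median at E11.5 was 0.07 in place of 0.16, with 8 positive values.

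**Figure D2:**
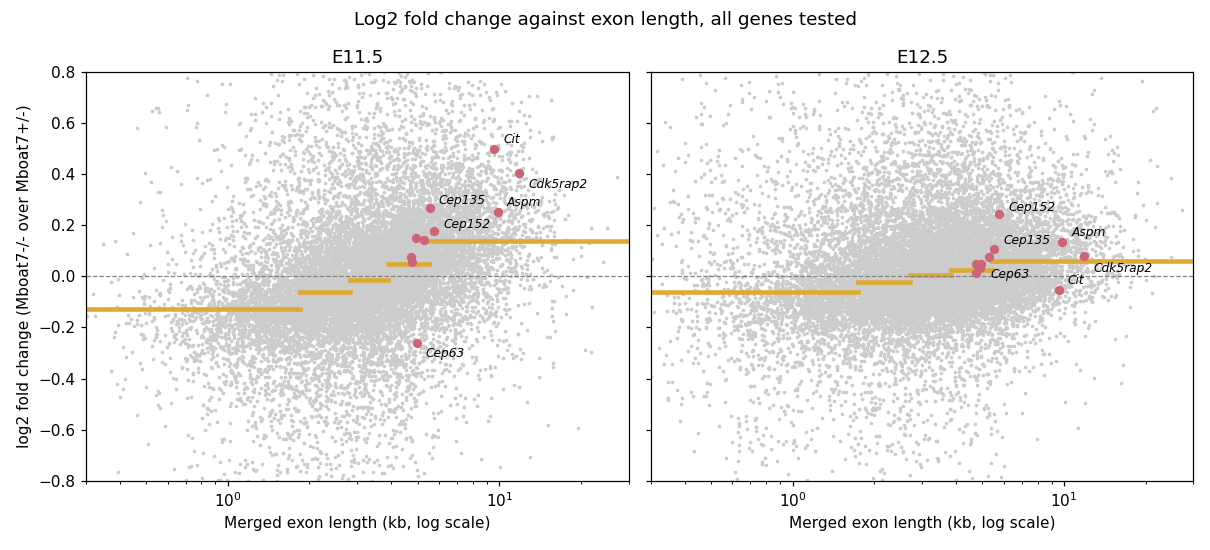
Log2 fold change (vertical axis, Mboat7-/- over Mboat7+/-) of every gene tested with a length against its merged exon length (horizontal axis, kb on a log scale), with the members in red and the median of each length class as a bar. The bars climb from -0.13 to 0.14 at E11.5, where Cit and Cdk5rap2 lie above the bar of the longest class and Cep63 below that of its own. Values beyond 0.8 in either direction fall outside the plot.

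Removing this trend separated the members that had stood out. Cit kept a log2 fold change of 0.36 (unadjusted p = 0.00246, adjusted p = 0.469 from edgeR), and Cdk5rap2 one of 0.24 (unadjusted p = 0.0351, adjusted p = 0.574 from edgeR). Aspm came to 0.06, with an unadjusted p of 0.457 from edgeR. Cep63, in contrast, was further below 0, at -0.38 (unadjusted p = 0.00484, adjusted p = 0.49 from edgeR). Cenpj changed its sign, to -0.03. Part of the E11.5 difference in Cit and Cdk5rap2, and most of it in Aspm, moved with length and GC content, and the source of the trend was not tested. With trend removal and the replicate block together, no member passed, and the adjusted p was 0.0769 for Cit and 0.242 for Cdk5rap2.

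**Figure D3:**
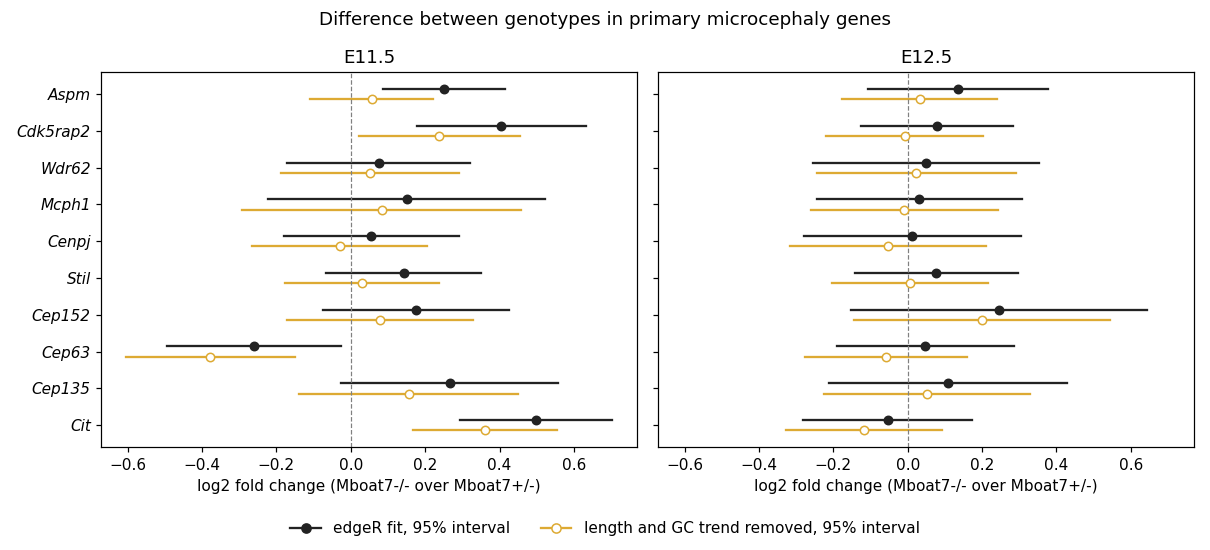
Log2 fold change (horizontal axis, Mboat7-/- over Mboat7+/-) with its 95% interval for each of the 10 genes at E11.5 and E12.5, from the edgeR fit (black) and with the length and GC trend removed (yellow, open points). At E11.5 both intervals of Cit and Cdk5rap2 lie above 0 and both of Cep63 below it, the interval of Aspm spans 0 after the trend is removed, and all intervals at E12.5 span 0.

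For some cell types the summed markers also stood apart by genotype at E11.5, although no marker passed the threshold. All 10 neuronal markers had a negative log2 fold change (median -0.36). Their summed level was 2175 to 2467 CPM in Mboat7+/- and 1459 to 2287 CPM in Mboat7-/- cortices, which overlapped. In 1 of these 10 both Mboat7-/- cortices lay below both Mboat7+/- cortices, as in 23.3% of all genes. All 6 markers of intermediate progenitor cells were likewise negative (median -0.30, 578 to 600 CPM against 428 to 553 CPM). Of 10 radial glial markers 7 were negative, with sums of 4087 to 4134 CPM against 3611 to 4193 CPM, which overlapped. The cortical transcription factor Emx1 had 56.9 and 65.7 CPM against 35.8 and 49.6 CPM, and Lhx2 had 443 and 475 CPM against 331 and 420 CPM. Both were lower in both Mboat7-/- cortices, while Emx2 overlapped. Of 8 markers of the ventral telencephalon 7 were negative too (594 to 640 CPM against 481 to 591 CPM). Markers of mesenchyme, the tissue around the brain, were positive in 9 of 10 (1612 to 1639 CPM against 1845 to 2037 CPM), and those of endothelium in 5 of 6 (254 to 272 CPM against 284 to 294 CPM). Blood markers were negative in all 6 tested (5119 to 6780 CPM against 3536 to 3764 CPM), with Hba-a1 and Hba-a2 at 0 in every E11.5 cortex, and microglial markers were split 3 to 3. Of the 10 proliferation genes 7 were negative, although their sum, 3265 to 3321 CPM against 3339 to 3439 CPM, was higher in both Mboat7-/- cortices. That sum holds Top2a (means of 815 against 896 CPM) and Mki67 (702 against 759 CPM). With the length and GC trend removed, these 2 genes had log2 fold changes of 0.02 and -0.07. The members summed to 455 to 481 CPM against 532 to 554 CPM. The part of these shifts, and of the Xist difference, in the members' values was not tested.

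At E12.5, no member differed between genotypes beyond the spread between cortices. None passed the threshold (0.0184% of genes did), by edgeR or by DESeq2, and none had an unadjusted p under 0.05 (4.11% of genes did, 2.76% higher and 1.35% lower), with unadjusted p from 0.200 to 0.929. Positive log2 fold changes were found in 9 members, against 51.2% of all genes, and a negative one in Cit, with a median of 0.06 against 0.005 for all genes. Without each cortex in turn, 5 to 10 members were positive and the median was 0.00405 to 0.12. It was lowest without replicate 2 of either genotype and highest without replicate 1 of either. Stil alone had both Mboat7-/- cortices above both Mboat7+/- cortices (16.9% of all genes did), and no member had both below (15.2% did). Once the trend in length and GC content was taken out, 5 of the 10 were positive and the median was -0.001.

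Cit had 46.4 and 41.0 CPM in the E12.5 Mboat7+/- cortices and 41.8 and 42.4 CPM in the Mboat7-/- cortices. Both Mboat7-/- values fell between the Mboat7+/- values, and the log2 fold change was -0.05 (standard error 0.10, 95% interval -0.28 to 0.17). Cdk5rap2 had 94.8 and 86.5 CPM against 94.4 and 97.0 CPM, with a log2 fold change of 0.08 (95% interval -0.13 to 0.28). Aspm had 94.96 and 77.5 CPM against 92.3 and 97.0 CPM. In Aspm the lowest cortex was replicate 2 of Mboat7+/-, and the log2 fold change was 0.14 (95% interval -0.11 to 0.38). Cep63 had 30.6 and 28.998 CPM against 29.3 and 32.3 CPM, so that the gene lower at E11.5 overlapped here, with a log2 fold change of 0.05.

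The largest value at E12.5 was that of Cep152, with 12.6 and 10.1 CPM in Mboat7+/- and 11.7 and 15.1 CPM in Mboat7-/- cortices. Its groups overlapped, and the log2 fold change of 0.25 had a standard error of 0.18 (95% interval -0.15 to 0.64, unadjusted p = 0.200 from edgeR). It was 0.0523 to 0.42 without each cortex in turn, lowest without replicate 2 of Mboat7-/-. Stil had 39.2 and 38.2 CPM against 39.4 and 42.2 CPM. Its groups were apart by a margin smaller than the gap between the cortices of either genotype, at a log2 fold change of 0.08. The 4 others, Wdr62, Mcph1, Cenpj and Cep135, overlapped between genotypes, with log2 fold changes of 0.05, 0.03, 0.01 and 0.11. Among the 10, the upper bounds of the 95% intervals corresponded to folds of 1.13 to 1.56 and the lower bounds to folds of 0.823 to 0.928. With 2 cortices per genotype, a fold within the interval of a member was not excluded for that member. At this stage the neuronal markers (9 of 10 positive, median 0.12) and those of intermediate progenitor cells (5 of 6 positive) stood on the other side of 0 from E11.5, while blood markers were again negative in all 9 (5308 to 7714 CPM against 3811 to 5402 CPM).

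Whether the genotype difference itself differed between stages was tested as the interaction of stage and genotype over all 8 cortices and 14978 genes. No gene passed at an FDR under 0.05 by edgeR (20 did by DESeq2, none of them a member), and 5.72% had an unadjusted p under 0.05 (2.66% with a positive and 3.06% with a negative interaction). In the members, the interaction was strongest for Cit, at -0.55 on the log2 scale (standard error 0.14, 95% interval -0.86 to -0.25, unadjusted p = 0.00189, adjusted p = 0.496 from edgeR). With the trend removed it was -0.48 for Cit. For Cdk5rap2 it was -0.33 (unadjusted p = 0.0361, adjusted p = 0.846 from edgeR), and -0.25 with the trend removed (unadjusted p = 0.0853 from edgeR). For Cep63 it was 0.31 (unadjusted p = 0.0607, adjusted p = 0.853 from edgeR), and 0.32 with the trend removed (unadjusted p = 0.0402 from edgeR). In a fit of a genotype difference shared by both stages, Aspm had a log2 fold change of 0.20 (unadjusted p = 0.0152), Cdk5rap2 0.24 (0.0109) and Cit 0.23 (0.0428), each with an adjusted p of 0.379 to 0.431 from edgeR. With the trend removed these were 0.0464, 0.114 and 0.127, and none of the 3 had an unadjusted p under 0.05. An unadjusted p under 0.05 occurred in 11.3% of all genes in that fit, 6.69% higher and 4.63% lower. Cep63 stood at -0.11 in it, and at -0.22 with the trend removed (unadjusted p = 0.0172 from edgeR).

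Levels of different genes were compared per kilobase of merged exons, where Aspm had the highest mean of the members at both stages, overlapping the next gene at each. The E11.5 order of mean CPM per kb was Aspm (11.4), Stil (10.3), Wdr62 (7.82), Cenpj (7.72), Cep63 (7.51), Cit (6.32), Cep135 (6.31), Cep152 (6.05), Cdk5rap2 (5.88) and Mcph1 (5.65). Of neighbours in this order, only Stil and Wdr62 did not overlap across the 4 cortices. At E12.5 the order was Aspm (9.16), Cdk5rap2 (7.87), Stil (7.52), Cep63 (6.11), Cit (4.49), Cenpj (4.38), Wdr62 (3.64), Mcph1 (3.56), Cep135 (3.07) and Cep152 (2.14). Here Stil and Cep63, Cep63 and Cit, Cenpj and Wdr62, and Mcph1 and Cep135 were apart, and the other neighbours overlapped. The merged length of Cdk5rap2 combines alternative transcripts, which lowers its value per kilobase, so its place, also beside Aspm at E12.5, is uncertain. The stages came from tables with different annotations and providers, so the orders stand side by side and were not compared.

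Within stage, the members also differed in how close their profiles were, by a distance that is small also between genes that vary little. With log2 CPM centred within each stage over the 8 cortices, the most alike pair was Cdk5rap2 and Cit, with a root mean square difference of 0.0633, followed by Wdr62 and Stil (0.0755) and Wdr62 and Cenpj (0.0879). The least alike were Cep63 and Cit (0.281) and Cep63 and Cdk5rap2 (0.255). Of 14978 genes, those most like Aspm by this measure were Mylip (0.0164), Zfp236 (0.0194), Zfp260 (0.0283), Dip2a (0.0308) and Ltn1 (0.0311), where the range of Aspm was 0.36. Those most like the mean of the 10 members were Htt (0.0224), Pik3c2b (0.0226), Emsy (0.0251), Ppwd1 (0.027) and Igf1r (0.0273), where the range of the mean was 0.28. The members were left out of the search for genes like their mean. None of the genes most like Aspm is a member, and none of these 10 nearest genes is in the lists below.

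Related genes were described by the same fit, with lists of the division machinery taken whole. Of 20 other primary microcephaly genes, 16 had a positive log2 fold change at E11.5 (median 0.06) and 10 at E12.5 (median -0.001). At E11.5 an unadjusted p under 0.05 was reached by 3 of them, against 13.8% of all genes, all higher, namely the kinetochore genes Cenpe (log2 fold change 0.35) and Knl1 (0.52) and the autophagy adaptor Wdfy3 (0.20). With the length and GC trend removed they stood at 0.16, 0.30 and 0.0475, and Wdfy3 no longer had such a p. Of 13 genes of centriole duplication and length, 7 were positive at E11.5 (median 0.04), and the 3 with the smallest p were Ccp110 (0.29), which caps centrioles, Cep192 (0.24) and Cep295 (0.25). Of 14 genes of the pericentriolar material and satellites, 9 were positive (median 0.06), with Pcm1 (0.31) and Tubgcp6 (0.30) higher and Tubg1 (-0.25), the gamma-tubulin gene, lower. An unadjusted p under 0.05 was reached by 3 of the 13 and 5 of the 14, beside the same 13.8% of all genes, and by none of the 6 genes just named with the trend removed. In all 7 lists 0 genes passed the threshold by edgeR.

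Genes of the spindle pole and of cytokinesis were similarly split at E11.5. Of 15 spindle genes 7 were positive (median -0.002), with Ckap5 (0.17), Numa1 (0.18) and Kif11 (0.15) the 3 with the smallest p. Of 14 cytokinesis genes, which act beside Cit, 9 were positive (median 0.07), and Rock2 (0.36), Rock1 (0.31) and Kif20b (0.25) came first by p. An unadjusted p under 0.05 from edgeR was reached by 3 of the 15 spindle genes, all higher, where 13.8% of all genes did so. Among the 14 cytokinesis genes 3 that were higher and 1 that was lower reached it. The first-ranked genes named for these lists were all higher in the cortices labelled Mboat7-/-. Once that trend was taken out they stood at 0.0137, 0.0701, 0.0487, 0.17, 0.13 and 0.0963, and none had an unadjusted p under 0.05. Proliferation genes had a median of -0.01, with Top2a at 0.14, Mki67 at 0.11 and Cdk1 at -0.16. With the trend removed, Top2a stood at 0.02 and Mki67 at -0.07. Cdk1 then stood at -0.21 (unadjusted p = 0.0112, adjusted p = 0.53 from edgeR). An unadjusted p under 0.05 occurred in 1219 of 14935 genes in that fit.

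At E12.5 the list with the lowest median was that of proliferation. The medians were 0.04 for centriole genes (10 of 13 positive), -0.03 for the pericentriolar material (5 of 14), 0.01 for the spindle pole (8 of 15) and 0.02 for cytokinesis (8 of 14). The 3 with the smallest p were Spice1 (0.26), Rttn (0.20) and Ccdc57 (0.37) among centriole genes, Cep68 (0.19), Tubg1 (-0.14) and Pcm1 (0.20) in the pericentriolar material, Mapkbp1 (-0.27), Katna1 (-0.19) and Nde1 (-0.12) at the spindle pole, and Kif23 (0.20), Rock2 (0.18) and Rock1 (0.16) in cytokinesis. Of the other primary microcephaly genes, Mfsd2a, a lipid transporter, came first with 22.1 and 22.3 CPM in Mboat7+/- and 28.4 and 27.6 CPM in Mboat7-/- cortices. Both Mboat7-/- values of Mfsd2a lay above both others, as in 16.9% of all genes. Its log2 fold change was 0.33 (unadjusted p = 0.0105, adjusted p = 0.958 from edgeR). Knl1 (0.20) and Rrp7a (-0.16) followed, with unadjusted p of 0.105 and 0.123 from edgeR. Of 10 proliferation genes 9 were negative (median -0.14), led by the replication genes Mcm5 (-0.26) and Mcm2 (-0.20) and by Ccne1 (-0.26). None of the 10 had an unadjusted p under 0.05 from edgeR, where 4.11% of all genes did. In 3 of them both Mboat7-/- cortices lay below both others, as in 15.2% of all genes. The summed level of the list was 2552 to 2619 CPM in Mboat7+/- and 2308 to 2513 CPM in Mboat7-/- cortices.

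The mitotic surveillance list holds Trp53bp1 and Usp28, through which loss of centrosomes or a long mitosis reaches p53, with p53 itself and its targets. At E11.5, 6 of its 10 genes were negative (median -0.08), with the pro-apoptotic Bax at -0.27 and Cdkn1a, which encodes the cell cycle inhibitor p21, at -0.34, and Trp53bp1 at 0.17. With the trend removed, Bax stood at -0.13, Cdkn1a at -0.29 and Trp53bp1 at -0.000244, and none of the 3 had an unadjusted p under 0.05. At E12.5, 6 of 10 were positive (median 0.07), and 4 had a positive value with an unadjusted p under 0.05, where 2.76% of all genes did. Cdkn1a had 22.4 and 24.1 CPM in the E12.5 Mboat7+/- cortices and 30.8 and 27.9 CPM in the Mboat7-/- cortices. Its groups were apart, with a log2 fold change of 0.34 and an adjusted p of 0.958 from edgeR, and the p53 targets Ccng1 (0.29) and Trp53inp1 (0.32) were also positive. Cdkn1a kept 0.34 with the trend removed, whereas Ccng1 (0.20) and Trp53inp1 (0.18) then had an unadjusted p above 0.05. None of the 10 passed the threshold at either stage.

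**Figure D4:**
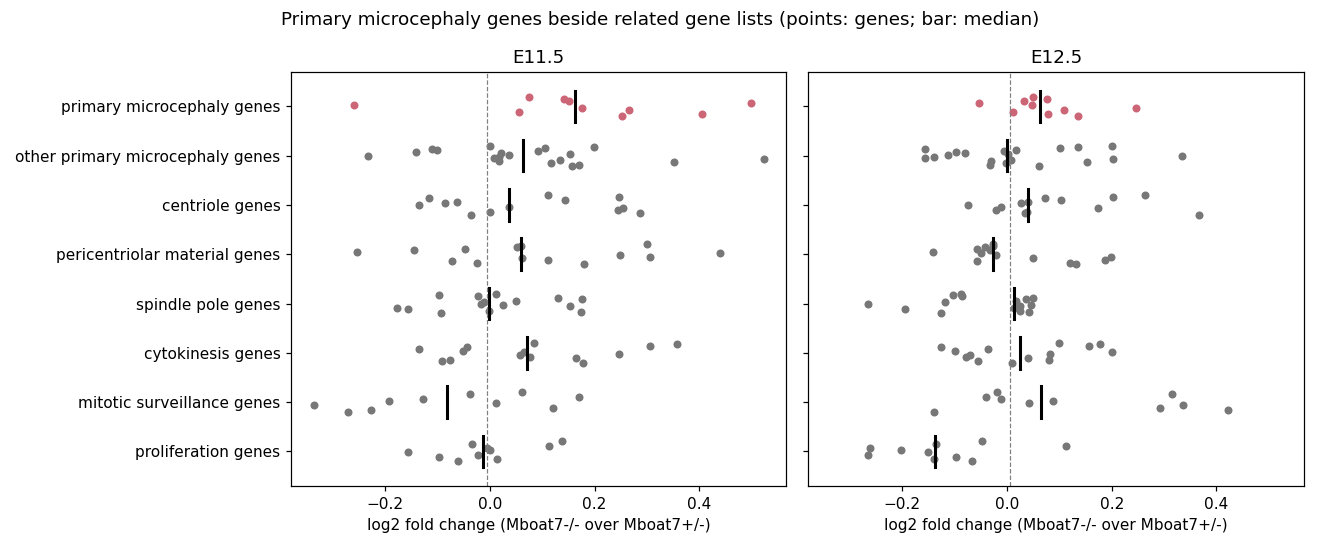
Log2 fold change (horizontal axis, Mboat7-/- over Mboat7+/-) of each gene tested in the 10 members (red) and in 7 related lists (grey) for both stages, with the median of each list as a black bar and that of all genes as a dashed line. The members' median is 0.16 and then 0.06, the mitotic surveillance genes stand at -0.08 and 0.07, and the proliferation genes at -0.01 and -0.14.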

How the data were processed

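Single embryonic cortices were analysed as bulk RNA-seq, 2 per genotype and stage. The authors deposited raw counts per gene for each stage, with no normalization. Per the submitters' processing notes HISAT2 and Subread were used with the builds mm10 and GRCm39. Which build belongs to which table and the strand setting of the counting are not given in the sources used here. Libraries were poly(A)-selected and directional. Gene symbols name the 23420 genes of E11.5, and Ensembl identifiers the 78298 genes of E12.5. Symbols were matched for 98.5% and 81.2% of genes with a count, and the 10 members matched in both.

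Genotypes were compared within stage in edgeR 4.0.16 under R 4.3.3 (TMM library sizes, filterByExpr with a minimum count of 10, quasi-likelihood test, prior count 0.125, Benjamini-Hochberg over all genes tested). Whole-table calls also required an absolute log2 fold change of 1. CPM used TMM library sizes. Lengths came from GENCODE vM21 for 98.9% and 95.0% of genes tested. A length and GC trend was removed with splines of 5 degrees of freedom. Other alternatives were RLE size factors, DESeq2 1.42.0, no filter, the replicate block and leaving out each cortex. In leave-one-out fits the lone cortex was assumed to vary like the other genotype. The replicate number equals the batch number of the labels and was taken to pair cortices. Deviations of same-numbered cortices correlated at 0.05 (E11.5) and -0.12 (E12.5) across genes. Chi-square per degree of freedom between cortices was 4.69 to 25.9, so none was a repeat library. Scripts were tested on simulated data. Tables used pandas 2.3.3 and numpy 2.4.6 under Python 3.11.15, and plots matplotlib 3.10.9.

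The members and lists were chosen with earlier results of these data known. Named genes are the 10 members, Mboat7, the 3 genes with the smallest unadjusted p of each related list per stage, and the 5 genes nearest in profile to Aspm and to the members' mean. Anapc13 and Thap8 were added for their overlap with members, and Xist, Emx1, Emx2 and Lhx2 as checks of the libraries, the last 3 chosen after their values were seen. Trappc14, on the list of other primary microcephaly genes, was not matched. A further marker list is not reported here. Members marked by an unadjusted p under 0.05 are described, not called.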

Additional observations from a re-analysis of the deposited data

Results flagged for a closer look

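Of 47 genes examined, the 10 members, Mboat7 and the related genes named above, 6 had an interaction of stage and genotype with an unadjusted p under 0.05. In 3 of these 6 the cortices labelled Mboat7-/- also lay wholly on opposite sides of the Mboat7+/- cortices at the 2 stages. Of all genes tested, both Mboat7-/- cortices lay above both others in 23.1% at E11.5 and 16.9% at E12.5. They lay below both others in 23.3% and 15.2%, and the share on opposite sides at the 2 stages was not computed. None of the 6 genes passed an FDR of 0.05 by edgeR, and 5.72% of all genes had such an interaction p. Most of the 47 were named for a small p at 1 stage, which favours a difference between stages. Among the members these were Cit, with an interaction of -0.55 on the log2 scale (0.50 at E11.5 and -0.05 at E12.5), and Cdk5rap2, with -0.33 (0.40 and 0.08). In the pericentriolar list Tubgcp6 had an interaction of -0.33 (unadjusted p = 0.0416, adjusted p = 0.85 from edgeR).

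Cdkn1a had the largest, at 0.67, from a log2 fold change of -0.34 at E11.5 to 0.34 at E12.5 (unadjusted p = 0.00177, adjusted p = 0.489 from edgeR). Mfsd2a had 0.57, from -0.23 to 0.33 (unadjusted p = 0.00484, adjusted p = 0.689 from edgeR). Mboat7 itself had -0.34, from 0.17 to -0.17 (unadjusted p = 0.0348, adjusted p = 0.846 from edgeR). In these 3 genes the groups did not overlap at either stage. Stage and sequencing provider cannot be told apart in any of these differences.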

How the results depend on the processing

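With 2 cortices per genotype, calls in the whole table moved with the processing. At E11.5, where 0 genes passed with edgeR, 12 passed with DESeq2, 41 with no filter, 30 with the replicate block, 14 with trend removal and the block, and 1 to 159 whichever cortex was left out, the fewest without replicate 1 of Mboat7+/- and the most without replicate 2 of Mboat7-/-. At E12.5, where 3 passed, the numbers were 5, 0, 14 and 28, and 25 to 94 whichever cortex was left out, the most without replicate 1 of Mboat7-/-. Members with an unadjusted p under 0.05 numbered 2 to 4 at E11.5 without a cortex (2 without replicate 1 of Mboat7+/-) and 0 to 1 at E12.5 (1 without replicate 1 of either genotype). Over both stages they numbered 3 (Aspm, Cdk5rap2 and Cit), and 1 with the trend removed and 1 with trend removal and the block, which was Cep63 in both, and 1 to 5 without a cortex (1 without E11.5 Mboat7+/- replicate 1 or E12.5 Mboat7+/- replicate 2, 5 without E12.5 Mboat7+/- replicate 1). For the interaction they numbered 2 (Cit and Cdk5rap2; with the trend removed Cit and Cep63), then 1 with trend removal and the block and 1 to 2 without a cortex (1 without E11.5 Mboat7+/- replicate 2, E11.5 Mboat7-/- replicate 2 or E12.5 Mboat7+/- replicate 1). The replicate block changed the FDR call of no member other than Cit and Cdk5rap2 at E11.5, and it brought Cep135 to an unadjusted p under 0.05 there (0.04).

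At E11.5, Cit passed an FDR of 0.05 also with DESeq2 (0.0089) and no filter (0.00621), and Cdk5rap2 with no filter (0.024), where 178 and 317 genes in all passed that FDR with no limit on the fold. Signs turned at E11.5 for Cenpj with the trend removed (-0.0304, and -0.0306 with the block) and for Mcph1 without a cortex (-0.018 to 0.35). At E12.5, with the trend removed alone and with the block, they turned for Cdk5rap2 (-0.00863 and -0.00913), Mcph1 (-0.00908 and -0.00927), Cenpj (-0.0523 and -0.0568) and Cep63 (-0.0593 and -0.0597). Without a cortex at E12.5, log2 fold changes spanned -0.00534 to 0.29 for Aspm, -0.0752 to 0.18 for Wdr62, -0.0218 to 0.0788 for Mcph1, -0.15 to 0.15 for Cenpj, -0.0249 to 0.11 for Cep63, -0.0569 to 0.29 for Cep135 and -0.14 to 0.0367 for Cit. The cause of these changes was not tested.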
